A study of Mus musculus with 8 samples.

Results

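The genes described here encode the enzymes, kinases and transporters that carry glucose to lactate, pyruvate into mitochondria, glucose 6-phosphate through the pentose phosphate pathway and glucose into glycogen. They are 42 of the 24982 gene symbols in the deposited count table. They were chosen by symbol from knowledge of the pathways, with earlier results of these data known. All 42 passed the filter on low counts. RNA was sequenced from tail tendon fibroblasts of C57Bl/6 mice grown in culture. In 4 libraries (numbers 2, 3, 4 and 5) the gene Scx, which encodes the tendon transcription factor scleraxis, had been deleted (genotype Scx-), and in 4 libraries (numbers 2, 3, 5 and 6) it was present (genotype Scx+). All 8 cultures had received 4-hydroxytamoxifen (4HT), so that treatment was shared by both groups, and the labels name neither a Cre driver nor the deleted part of Scx. Whether the libraries stem from different animals or dishes is not stated, so the p-values weigh differences against a spread between libraries that may be technical.

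Glycolysis splits glucose into pyruvate in the cytosol, and lactate dehydrogenase turns pyruvate into lactate, which monocarboxylate transporters carry across the plasma membrane. Pyruvate can instead enter mitochondria, where pyruvate dehydrogenase converts it to acetyl-CoA unless pyruvate dehydrogenase kinases switch that enzyme off. The pentose phosphate pathway branches off at glucose 6-phosphate and gives NADPH and ribose 5-phosphate. Several steps can be run by isoforms from separate genes that differ in kinetics and in how they are regulated.

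Gene counts per library were 17343228 to 22178439 in Scx-deleted cells and 18408278 to 25180790 in Scx-positive cells. Scx itself had 3, 1, 2 and 3 counts in the Scx-deleted libraries, against 177, 132, 252 and 156 counts in the Scx-positive libraries. The groups parted along the first principal component (53.3% of the variance), and Scx-positive 5 stood apart from the other libraries on the second (12.9%). The tendon markers Col1a1 and Tnmd were detected in both groups. Of 17 tested tendon markers 13 fell (76.5%, against 14.5% of all tested genes) and 0 rose (against 14.0%). Scx, which defines the groups, was among the 13, so its fall was given by the design. The list's summed level was 9241 to 10185 CPM (gene counts scaled to a common library size) in Scx-deleted cells and 12621 to 15627 CPM in Scx-positive cells. Summed levels of the marker lists for other cell types were 49.5 to 54.2 CPM in Scx-deleted and 68.4 to 86.5 CPM in Scx-positive cells for 8 endothelial genes (Cldn5 at 0), 443 to 483 CPM in Scx-deleted and 341 to 419 CPM in Scx-positive cells for 7 mural genes, and 73.4 to 81.1 CPM in Scx-deleted and 55.8 to 73.6 CPM in Scx-positive cells for 6 adipocyte genes (Lep at 0). They were 399 to 421 CPM in Scx-deleted and 416 to 434 CPM in Scx-positive cells for 7 Schwann cell genes, and 27.6 to 36.7 CPM in Scx-deleted and 35.2 to 41.5 CPM in Scx-positive cells for 10 skeletal muscle genes (Myh4, Myod1 and Pax7 at 0). For leukocytes and keratinocytes they were 23.2 to 26.8 CPM in Scx-deleted and 20.1 to 23.1 CPM in Scx-positive cells for 10 genes (Cd3e at 0), and 3.14 to 4.23 CPM in Scx-deleted and 2.75 to 4.01 CPM in Scx-positive cells for 6 genes (Krt1 at 0). Single genes carried several sums. Fabp4 made up most of the adipocyte sum, at 69.9 CPM in Scx-deleted and 53.3 CPM in Scx-positive cells, while the 4 tested adipocyte genes had a median log2 change of -0.38. Cspg4 made up most of the mural sum, at 365 CPM in Scx-deleted and 271 CPM in Scx-positive cells, while Rgs5 and Notch3 fell and the median over 6 tested genes was -0.30. Tek made up most of the endothelial sum, at 46.6 CPM in Scx-deleted and 74.3 CPM in Scx-positive cells, while Kdr rose and the median over 3 tested genes was 0.18. Pmp22 made up most of the Schwann cell sum, at 374 CPM in Scx-deleted and 385 CPM in Scx-positive cells, and did not pass the test. S100b fell, with a log2 change of -0.51. Acta1 made up most of the skeletal muscle sum, at 30.1 CPM in Scx-deleted and 36.4 CPM in Scx-positive cells. It fell, with a log2 change of -0.28. Of 4 tested leukocyte genes Cd68 and Csf1r rose, with log2 changes of 0.59 and 0.70. The other tested ones, Cd14 and Lyz2, had log2 differences of 0.08 and -0.17 and did not pass the test. Another 6 of the 10 leukocyte genes, Ptprc among them, lay under 1 CPM and were not tested. In bulk RNA, fewer cells of a type and less RNA per cell cannot be told apart, and the part of these markers in the results was not tested.

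Of the 42 genes, 23 rose in Scx-deleted cells (54.8%, against 14.0% of the 13125 genes tested) and 2 fell (4.76%, against 14.5%), by the quasi-likelihood test of edgeR at a Benjamini-Hochberg adjusted p of 0.05. The genes that rose ran from glucose uptake to lactate export, and both genes that fell act on mitochondrial pyruvate. The median log2 change, Scx-deleted over Scx-positive, was 0.19 for the 42 genes and -0.01 for all genes tested. These figures are a description, since the 42 genes were chosen with earlier results of these data known. Of 51 tested genes of these pathways outside the 42, 7 rose (13.7%) and 13 fell (25.5%). Of the 38 members whose mean level was 20 CPM or more, 22 rose and 2 fell, against 18.0% and 13.4% of the 7888 tested genes at that level. The changes were mostly small: 14 of the 23 that rose had a log2 change of at least 0.3 (6.32% of all tested genes rose by that much), and 4 of them, Eno2, Hk2, Slc16a3 and Aldoc, were at least 1.5-fold higher. In 25 of the 42 genes the libraries of the groups did not overlap (29.1% of all tested genes), and in 23 of these the Scx-deleted cells were higher. Without Scx-positive 5, 26 of the 42 genes rose and 2 fell, while 2409 of 13183 tested genes rose and 2310 fell.

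**Figure D1:**
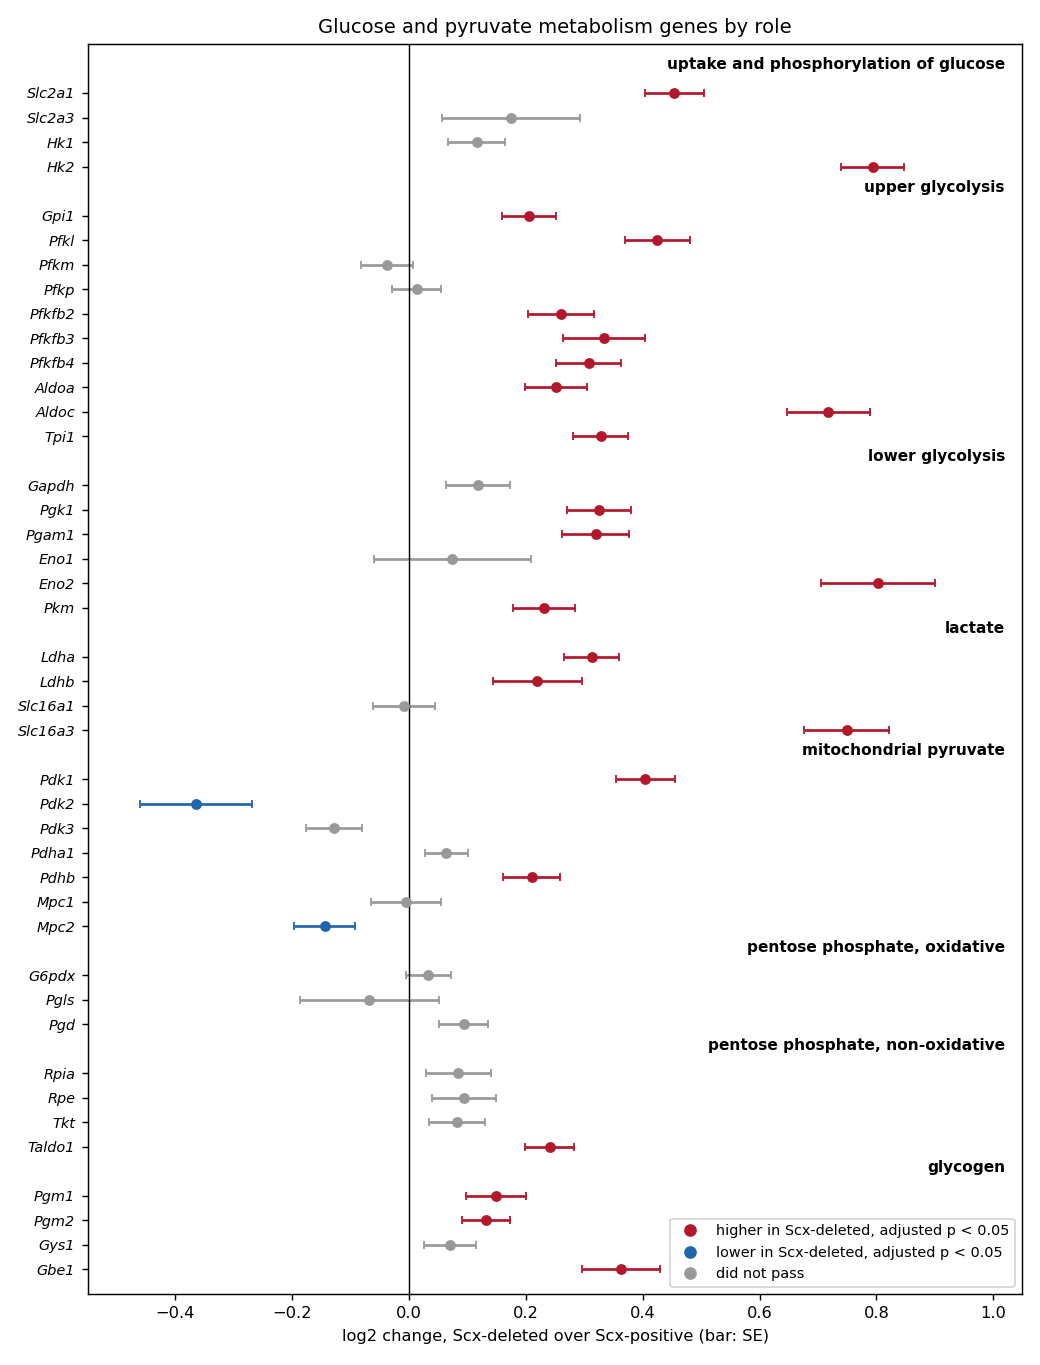
Log2 change of each of the 42 genes in Scx-deleted over Scx-positive cells (x axis; points, with SE bars), grouped by role down the page and marked by whether the gene passed the test. Genes of glucose uptake, glycolysis and lactate lie mostly to the right of 0, up to 0.80 for Eno2, while those of mitochondrial pyruvate lie on both sides, down to -0.37 for Pdk2.

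The promoters shown are those of the 4 genes that were at least 1.5-fold higher, and whether these genes share regulation was not tested. Each runs 5′ to 3′ from 250 bases before to 50 bases after a transcription start in RefSeq, build GRCm38.p6. Hk2 lies at chr6:82774405-82774704 on the minus strand, Slc16a3 at chr11:120948817-120949116 on the plus strand, Eno2 at chr6:124769624-124769923 on the minus strand, and Aldoc, the first of 2 listed starts, at chr11:78322823-78323122 on the plus strand. Capitals mark ACGTG on either strand (CACGT when read on the strand shown), one form of the core of the hypoxia response element, which is also contained in the E-box CACGTG.
Hk2: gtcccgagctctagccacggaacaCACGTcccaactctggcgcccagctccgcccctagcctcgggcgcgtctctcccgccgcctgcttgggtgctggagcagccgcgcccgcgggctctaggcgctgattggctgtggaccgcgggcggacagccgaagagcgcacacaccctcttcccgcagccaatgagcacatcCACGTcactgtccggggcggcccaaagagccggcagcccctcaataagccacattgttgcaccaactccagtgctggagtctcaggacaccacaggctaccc
Slc16a3: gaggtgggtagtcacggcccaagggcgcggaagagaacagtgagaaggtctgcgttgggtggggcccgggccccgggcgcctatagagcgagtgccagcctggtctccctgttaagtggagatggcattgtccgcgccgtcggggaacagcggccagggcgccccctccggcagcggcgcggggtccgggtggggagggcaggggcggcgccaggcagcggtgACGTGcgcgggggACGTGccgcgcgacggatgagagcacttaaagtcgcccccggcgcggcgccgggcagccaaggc
Eno2: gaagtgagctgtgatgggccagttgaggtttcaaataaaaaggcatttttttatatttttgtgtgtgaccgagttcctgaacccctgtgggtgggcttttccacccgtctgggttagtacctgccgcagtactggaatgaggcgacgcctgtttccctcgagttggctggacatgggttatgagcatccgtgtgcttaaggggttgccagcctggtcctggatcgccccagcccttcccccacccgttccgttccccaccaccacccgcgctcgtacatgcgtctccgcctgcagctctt
Aldoc: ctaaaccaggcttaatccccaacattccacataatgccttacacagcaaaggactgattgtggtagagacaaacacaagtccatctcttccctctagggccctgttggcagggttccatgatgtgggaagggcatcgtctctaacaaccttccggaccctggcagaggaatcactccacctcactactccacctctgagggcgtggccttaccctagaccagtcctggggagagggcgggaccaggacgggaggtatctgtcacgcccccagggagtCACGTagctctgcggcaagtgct
Hk2 held 2 such matches, 226 and 52 bases before the start. Slc16a3 held 2, at 27 and 14 bases before it. Aldoc held 1 after its start and Eno2 held 0. Among the genes described here 41 had a RefSeq promoter at any listed start, and 21 of them held ACGTG: 14 of the 23 that rose and 7 of the other 18, against 29.3% of the 10286 tested genes with a promoter. The other form of the core, GCGTG, was in 12 of the 23 that rose and in 15 of the other 18, against 56.0% of tested genes. CACGTG was in 3 of the 23 and 3 of the 18, against 11.8%. These matches describe letters in a window, not sites of binding.

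Glucose uptake and phosphorylation was led by hexokinase 2. Of the 4 genes of uptake and phosphorylation 2 rose, 0 fell and 2 did not pass the test, with a median log2 change of 0.31. Over all tested genes 14.0% rose and 14.5% fell, and each role holds few genes. Per-library values are given in the order of the library numbers. Hk2 (ENSMUSG00000000628.10) encodes the hexokinase that traps glucose as glucose 6-phosphate and can bind mitochondria. Its level was 91.6, 95.2, 103 and 101 CPM in Scx-deleted cells, against 59.2, 51.5, 55.3 and 59.2 CPM in Scx-positive cells. The groups were far from overlapping, and the log2 change was 0.79 ± 0.05 (SE; adjusted p = 6.39e-08, edgeR), a 1.73-fold difference. Its sister Hk1, the hexokinase of most tissues, had 200.5, 201, 205 and 208 CPM in Scx-deleted cells, against 179, 175, 194 and 204 CPM in Scx-positive cells. Scx-positive 6 lay inside the range of the Scx-deleted libraries, and the log2 difference of 0.12 ± 0.05 (SE; adjusted p = 0.0863, edgeR) did not pass the test. Slc2a1 (ENSMUSG00000028645.11) encodes GLUT1, the basal glucose transporter. It stood at 146, 152, 165 and 157 CPM in Scx-deleted cells, against 111, 105, 120.4 and 117 CPM in Scx-positive cells. All Scx-deleted libraries were above all Scx-positive ones, with a log2 change of 0.45 ± 0.05 (SE; adjusted p = 8.27e-06, edgeR). Slc2a3, the transporter GLUT3, was scarce, at 5.03 ± 0.612 CPM in Scx-deleted cells and 4.41 ± 0.457 CPM in Scx-positive cells (SD, n = 4 each), with a log2 difference of 0.18 ± 0.12 (SE; adjusted p = 0.295, edgeR) that did not pass.

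**Figure D2:**
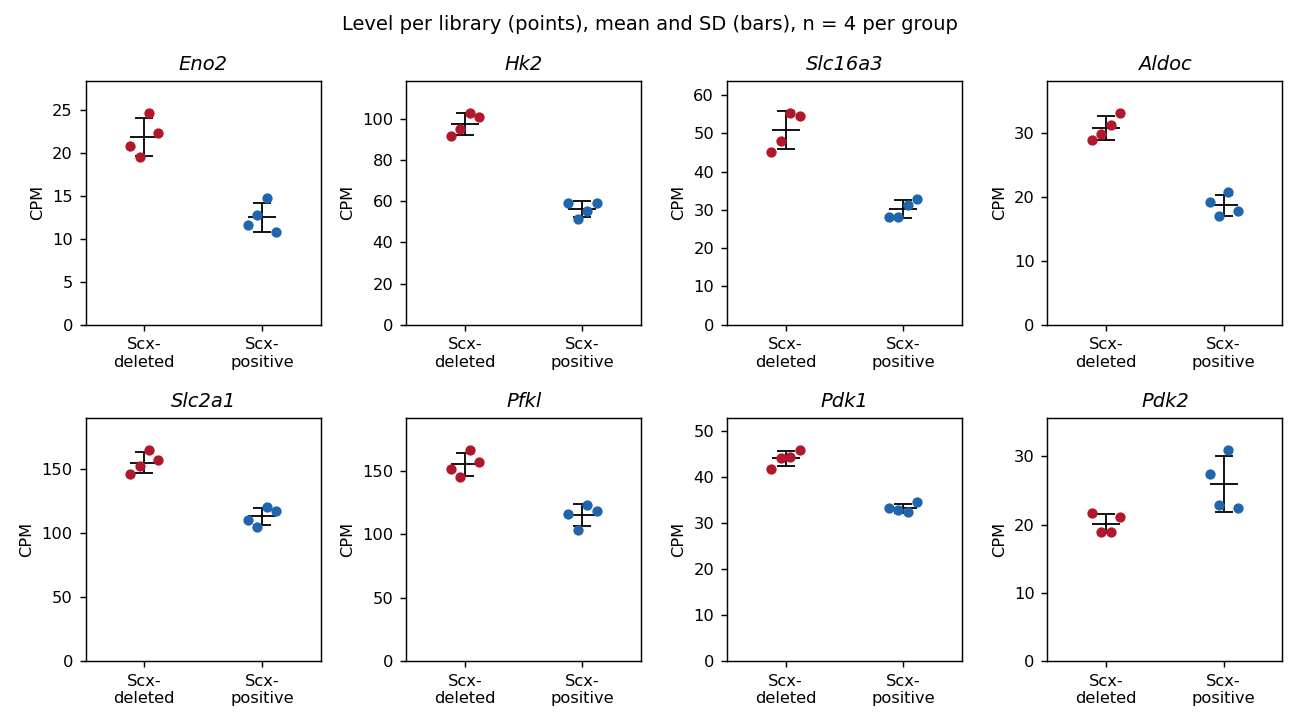
Level of 8 of the genes with per-library values, in CPM on the y axis of each panel, with 1 point per library and bars at the mean and SD of 4; Scx-deleted libraries are left of Scx-positive ones. The Scx-deleted libraries lie above all Scx-positive ones for Eno2, Hk2, Slc16a3, Aldoc, Slc2a1, Pfkl and Pdk1, and below them for Pdk2.

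In the upper part of glycolysis, from glucose 6-phosphate to triose phosphates, 8 of 10 genes rose, 0 fell and 2 did not pass. Over all tested genes 14.0% rose and 14.5% fell. The median log2 change of the 10 was 0.28. The 3 genes of phosphofructokinase-1, the committing step, did not move alike. Pfkl (ENSMUSG00000020277.10), the liver-type subunit, had 152, 145, 167 and 157 CPM in Scx-deleted cells, against 116, 104, 124 and 118 CPM in Scx-positive cells. Its groups did not overlap, and it rose by 0.42 ± 0.06 (SE; adjusted p = 3.78e-05, edgeR) on the log2 scale. The muscle-type subunit Pfkm had 50.6, 49.7, 51.0 and 51.5 CPM in Scx-deleted cells, against 50.2, 52.3, 54.2 and 51.4 CPM in Scx-positive cells, which overlapped, with a log2 difference of -0.04 ± 0.04 (SE; adjusted p = 0.567, edgeR). The platelet-type subunit Pfkp had 72.3, 74.0, 72.2 and 77.4 CPM in Scx-deleted cells, against 71.5, 72.8, 75.5 and 73.5 CPM in Scx-positive cells, also overlapping, with a log2 difference of 0.01 ± 0.04 (SE; adjusted p = 0.856, edgeR). Neither passed the test.

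The bifunctional enzymes that make and break fructose 2,6-bisphosphate, the activator of phosphofructokinase-1, rose in 3 of 4 genes. The fourth, Pfkfb1, from the list of further pathway genes and named after its values were seen, averaged 2.08 ± 0.227 CPM in Scx-deleted cells and 2.80 ± 0.417 CPM in Scx-positive cells (SD, n = 4 each) and fell, with a log2 change of -0.43 ± 0.15 (SE; adjusted p = 0.0471, edgeR). Pfkfb3 (ENSMUSG00000026773.19), the isoform with the strongest kinase activity, had 20.05, 22.7, 24.7 and 23.2 CPM in Scx-deleted cells, against 17.0, 18.6, 18.2 and 18.2 CPM in Scx-positive cells. Pfkfb4 (ENSMUSG00000025648.18) had 32.6, 36.5, 35.2 and 37.2 CPM in Scx-deleted cells, against 29.1, 27.3, 29.3 and 28.5 CPM in Scx-positive cells. The groups did not overlap for either gene, and the log2 changes were 0.33 ± 0.07 (SE; adjusted p = 0.00224, edgeR) for Pfkfb3 and 0.31 ± 0.06 (SE; adjusted p = 6.70e-04, edgeR) for Pfkfb4. Pfkfb2 averaged 42.2 ± 1.64 CPM in Scx-deleted cells and 35.3 ± 2.17 CPM in Scx-positive cells (SD, n = 4 each), with a log2 change of 0.26 ± 0.06 (SE; adjusted p = 0.00247, edgeR).

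Aldolase splits fructose 1,6-bisphosphate. Aldoc (ENSMUSG00000017390.15), the isoform best known from brain, had 28.9, 29.8, 31.2 and 33.1 CPM in Scx-deleted cells, against 19.1, 17.0, 20.7 and 17.8 CPM in Scx-positive cells. Its groups were well apart, with a log2 change of 0.72 ± 0.07 (SE; adjusted p = 2.10e-06, edgeR), or 1.64-fold. Aldoa, the main form in most cells, had 932, 859, 986 and 928 CPM in Scx-deleted cells, against 742, 732, 846 and 793 CPM in Scx-positive cells. It rose less, by 0.25 ± 0.05 (SE; adjusted p = 0.00212, edgeR) on the log2 scale. Tpi1 (ENSMUSG00000023456.15), which interconverts the triose phosphates, had 387, 371, 419 and 398 CPM in Scx-deleted cells, against 299, 303, 331 and 321 CPM in Scx-positive cells, and its log2 change was 0.33 ± 0.05 (SE; adjusted p = 8.17e-05, edgeR). Gpi1, the isomerase of glucose 6-phosphate, averaged 479 ± 21.2 CPM in Scx-deleted cells and 415 ± 20.7 CPM in Scx-positive cells (SD, n = 4 each), with a log2 change of 0.21 ± 0.05 (SE; adjusted p = 0.00325, edgeR).

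In the lower part of glycolysis 4 of 6 genes rose (against 14.0% of all tested genes), 0 fell (against 14.5%) and 2 did not pass. Their median log2 change was 0.27. Eno2 (ENSMUSG00000004267.16), the enolase known from neurons, had 20.9, 19.6, 24.7 and 22.4 CPM in Scx-deleted cells, against 11.6, 12.7, 14.8 and 10.8 CPM in Scx-positive cells. The highest Scx-positive value lay under the lowest Scx-deleted one, and the log2 change was 0.80 ± 0.10 (SE; adjusted p = 1.72e-05, edgeR), or 1.74-fold, close to that of Hk2. Pgk1 (ENSMUSG00000062070.12), the phosphoglycerate kinase that yields ATP, had 175, 176, 197 and 179 CPM in Scx-deleted cells, against 143, 151, 132 and 155 CPM in Scx-positive cells, and it rose by 0.32 ± 0.05 (SE; adjusted p = 3.36e-04, edgeR) on the log2 scale. Pgam1 (ENSMUSG00000011752.7), the mutase that follows it, had 79.4, 83.5, 89.9 and 83.2 CPM in Scx-deleted cells, against 63.4, 67.2, 63.6 and 75.0 CPM in Scx-positive cells, with a log2 change of 0.32 ± 0.06 (SE; adjusted p = 6.18e-04, edgeR). In both genes all Scx-deleted libraries were higher. Pkm, the pyruvate kinase that ends the pathway, averaged 1691 ± 105 CPM in Scx-deleted cells and 1441 ± 91.4 CPM in Scx-positive cells (SD, n = 4 each), with a log2 change of 0.23 ± 0.05 (SE; adjusted p = 0.00435, edgeR). Gapdh, which oxidises glyceraldehyde 3-phosphate and is often used as a reference gene, averaged 607 ± 34.9 CPM in Scx-deleted cells and 559 ± 42.1 CPM in Scx-positive cells (SD, n = 4 each). Its log2 difference of 0.12 ± 0.05 (SE; adjusted p = 0.127, edgeR) did not pass. Without Scx-positive 5 it was 0.17 with an adjusted p of 0.00406 by edgeR. Eno1, the enolase of most tissues, had 4.82 ± 0.656 CPM in Scx-deleted cells and 4.52 ± 0.707 CPM in Scx-positive cells (SD, n = 4 each), with a log2 difference of 0.07 ± 0.13 (SE; adjusted p = 0.722, edgeR). The counts of Eno1 and Gapdh were low beside the authors' deposited table, by 403 and 3.09 relative to the median gene. That table called both as positive, each with a log2 fold change of 0.24, so their results here are uncertain. The counts of Pgam1, Pgk1 and Pkm were low in the same way, by 9.11, 5.35 and 1.85, so their levels are uncertain too. The authors' deposited table called these genes as positive, with log2 fold changes of 0.28, 0.31 and 0.33.

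At the lactate step 3 of 4 genes rose (against 14.0% of all tested genes), 0 fell (against 14.5%) and 1 did not pass. Their median log2 change was 0.27. The largest change was in lactate export. Slc16a3 (ENSMUSG00000025161.16) encodes MCT4, a transporter typical of cells that release lactate. It had 45.3, 47.9, 55.4 and 54.6 CPM in Scx-deleted cells, against 28.3, 28.0, 31.4 and 32.9 CPM in Scx-positive cells. The groups did not overlap, and the log2 change was 0.75 ± 0.07 (SE; adjusted p = 1.92e-06, edgeR), or 1.68-fold. Slc16a1, the transporter MCT1, had 42.7, 39.7, 39.7 and 42.7 CPM in Scx-deleted cells, against 43.2, 42.8, 38.5 and 41.5 CPM in Scx-positive cells. Its groups overlapped, and the log2 difference was -0.01 ± 0.05 (SE; adjusted p = 0.920, edgeR). Ldha (ENSMUSG00000063229.15), the subunit favoured for making lactate, had 777, 752, 838 and 767 CPM in Scx-deleted cells, against 604, 607, 642 and 671 CPM in Scx-positive cells, with a log2 change of 0.31 ± 0.05 (SE; adjusted p = 1.25e-04, edgeR) and groups apart. Ldhb, the subunit favoured for using lactate, averaged 24.8 ± 1.95 CPM in Scx-deleted cells and 21.3 ± 1.89 CPM in Scx-positive cells (SD, n = 4 each) with overlapping groups. Its log2 change of 0.22 ± 0.08 (SE; adjusted p = 0.0402, edgeR) lost its call in 7 of 16 alternatives, among them each of 5 left-out libraries (Scx-deleted 2, 3 and 4, Scx-positive 3 and 6), with adjusted p up to 0.252.

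The genes of mitochondrial pyruvate did not share a direction: 2 of 7 rose, 2 fell and 3 did not pass, with a median log2 change of -0.01. Over all tested genes 14.0% rose and 14.5% fell, and with 7 genes these counts cannot be told from that background. Of the 4 pyruvate dehydrogenase kinase genes 1 rose, 1 fell and 2 did not pass. Pdk1 (ENSMUSG00000006494.11) had 41.9, 44.1, 44.3 and 46.0 CPM in Scx-deleted cells, against 33.3, 32.9, 32.4 and 34.7 CPM in Scx-positive cells. It rose by 0.40 ± 0.05 (SE; adjusted p = 2.12e-05, edgeR) on the log2 scale, with groups apart. Pdk2 (ENSMUSG00000038967.13), a widely expressed kinase of the same enzyme, had 21.7, 18.9, 18.9 and 21.1 CPM in Scx-deleted cells, against 27.5, 22.9, 31.0 and 22.4 CPM in Scx-positive cells. Every Scx-deleted library was below every Scx-positive one, though narrowly, and the log2 change was -0.37 ± 0.10 (SE; adjusted p = 0.00953, edgeR). Pdk3 had 49.4, 54.9, 53.5 and 52.2 CPM in Scx-deleted cells, against 57.8, 57.8, 54.5 and 59.6 CPM in Scx-positive cells, which overlapped, with a log2 difference of -0.13 ± 0.05 (SE; adjusted p = 0.0599, edgeR) that did not pass. Pdk4, from the list of further pathway genes and named after its values were seen, was the most abundant of the 4 per length, with a level of 127 ± 3.68 CPM in Scx-deleted cells and 129.7 ± 11.5 CPM in Scx-positive cells (SD, n = 4 each). Its log2 difference of -0.04 ± 0.06 (SE; adjusted p = 0.674, edgeR) did not pass. Pdhb, the beta subunit of pyruvate dehydrogenase, averaged 93.6 ± 3.27 CPM in Scx-deleted cells and 81.0 ± 5.02 CPM in Scx-positive cells (SD, n = 4 each) and rose by 0.21 ± 0.05 (SE; adjusted p = 0.00473, edgeR) on the log2 scale. Pdha1, the alpha subunit that the kinases phosphorylate, had a log2 difference of 0.06 ± 0.04 (SE; adjusted p = 0.215, edgeR). The mitochondrial pyruvate carrier is built from Mpc1 and Mpc2. Mpc2 averaged 31.5 ± 0.714 CPM in Scx-deleted cells and 34.8 ± 1.43 CPM in Scx-positive cells (SD, n = 4 each), and its log2 change of -0.14 ± 0.05 (SE; adjusted p = 0.0465, edgeR) lost its call in 12 of 16 alternatives, with adjusted p up to 0.132, among them each of the 8 left-out libraries. Mpc1 had a log2 difference of -0.01 ± 0.06 (SE; adjusted p = 0.955, edgeR).

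The oxidative pentose phosphate genes are G6pdx and Pgd, whose enzymes make NADPH, and Pgls, the lactonase between them. G6pdx, Pgls and Pgd had log2 differences of 0.03, -0.07 and 0.09, and 0 of the 3 passed the test in edgeR, DESeq2 or limma-voom. At an unadjusted 0.05 edgeR called 1, Pgd, which passed with the correction for GC content and length (adjusted p = 0.0312, edgeR) and without Scx-positive 6 (adjusted p = 0.0444, edgeR). The level of Pgls was 96.0 CPM in Scx-positive 5 and between 56.0 and 67.2 CPM in Scx-positive 2, 3 and 6. Without Scx-positive 5 its log2 difference turned to 0.12 (adjusted p = 0.0980, edgeR). Of the non-oxidative genes 1 of 4 rose, against 14.0% of all tested genes, which with 4 genes cannot be told from that background. Taldo1, the transaldolase, averaged 211 ± 9.27 CPM in Scx-deleted cells and 178 ± 5.71 CPM in Scx-positive cells (SD, n = 4 each), with a log2 change of 0.24 ± 0.04 (SE; adjusted p = 5.35e-04, edgeR). Tkt, Rpia and Rpe, which shuffle sugar phosphates with it, differed by 0.08, 0.08 and 0.09 on the log2 scale and did not pass. Of the 4 glycogen genes 3 rose (against 14.0% of all tested genes). Gbe1 (ENSMUSG00000022707.16), the branching enzyme, had 29.1, 35.4, 33.1 and 33.6 CPM in Scx-deleted cells, against 26.5, 25.8, 23.4 and 26.5 CPM in Scx-positive cells, with groups apart and a log2 change of 0.36 ± 0.07 (SE; adjusted p = 7.90e-04, edgeR). Pgm1 and Pgm2, phosphoglucomutases, changed by 0.15 ± 0.05 (SE; adjusted p = 0.0420, edgeR) and 0.13 ± 0.04 (SE; adjusted p = 0.0269, edgeR) on the log2 scale. Their calls were lost in 10 and 6 of 16 alternatives, with adjusted p up to 0.127 and 0.192. These names were exchanged between annotation versions, so which paralog each count belongs to is uncertain. Gys1, the glycogen synthase, differed by 0.07 on the log2 scale and did not pass.

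Within a step, the mix of isoforms shifted. Each gene's level was divided by its exon length, and its share of the step was compared over libraries by an exact two-sided permutation test, for which 4 against 4 libraries allow no p under 0.0286. Of 10 steps 7, enolase among them, had groups that did not overlap, each with that smallest p and an adjusted p of 0.0408 over the 10 steps. The shares come from the same counts as the gene tests above, on genes chosen with earlier results known. They restate those changes as proportions and give no separate support. Of Hk1 and Hk2 together, Hk2 made up 39.5, 40.4, 41.8 and 41.0% in Scx-deleted cells, against 32.1, 29.6, 28.9 and 29.4% in Scx-positive cells, a difference of 10.7 percentage points. Per length, Hk2 stood at 16.4 CPM per kb in Scx-deleted cells and 9.43 CPM per kb in Scx-positive cells, and Hk1 at 23.9 CPM per kb in Scx-deleted cells and 22.01 CPM per kb in Scx-positive cells. Of Slc16a1 and Slc16a3 together, Slc16a3 made up 46.9, 50.1, 53.8 and 51.5% in Scx-deleted cells, against 35.3, 35.3, 40.4 and 39.8% in Scx-positive cells, a difference of 12.9 points. Per length Slc16a3 stood at 9.55 CPM per kb in Scx-deleted cells and 5.67 CPM per kb in Scx-positive cells, and Slc16a1 at 9.30 CPM per kb in Scx-deleted cells and 9.37 CPM per kb in Scx-positive cells. Pdk1 made up 17.4% ± 0.404 in Scx-deleted cells and 12.3% ± 0.432 in Scx-positive cells of Pdk1, Pdk2 and Pdk3 (SD, n = 4 each), a difference of 5.14 points, or 9.19 points with no length correction. With Pdk4 added to the step, an alternative chosen after seeing the data, Pdk1 made up 8.26% ± 0.331 in Scx-deleted cells and 5.96% ± 0.164 in Scx-positive cells (SD, n = 4 each), a difference of 2.30 points that kept the same p. Pfkp made up 12.6% ± 0.580 in Scx-deleted cells and 14.3% ± 0.387 in Scx-positive cells of phosphofructokinase-1 (SD, n = 4 each), a difference of -1.71 points, or -4.03 points with no length correction. The level of Pfkp itself had a log2 difference of 0.01 that did not pass, while Pfkl in the same sum rose by 0.42.

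Aldoc made up 2.88% ± 0.190 in Scx-deleted cells and 2.09% ± 0.126 in Scx-positive cells of aldolase (SD, n = 4 each). The counts of Aldoa were low beside the authors' deposited table, by 1.44 relative to the median gene. Those of Ldha and Ldhb were low by 1.46 and 1.21. The sizes of the aldolase and lactate dehydrogenase shares are therefore uncertain. Slc2a1 made up 98.5% ± 0.142 in Scx-deleted cells and 98.2% ± 0.0829 in Scx-positive cells of the pair Slc2a1 and Slc2a3 (SD, n = 4 each), a difference of 0.303 points, or 0.605 points with no length correction. Slc2a6, Slc2a8 and Slc2a10 of the same family were more abundant per length than Slc2a3, and with 9 of them added, again after seeing the data, Slc2a1 made up 67.1% ± 1.34 in Scx-deleted cells and 60.4% ± 0.997 in Scx-positive cells (SD, n = 4 each), a difference of 6.77 points. The share of Eno2 in enolase also differed but is not interpreted, since Eno1 was barely counted. For 3 steps the test did not pass: Pfkfb3 made up 18.6% ± 1.16 in Scx-deleted cells and 18.1% ± 0.777 in Scx-positive cells of its step, Ldhb 6.26% ± 0.249 in Scx-deleted cells and 6.65% ± 0.770 in Scx-positive cells, and Pgm2 77.9% ± 0.759 in Scx-deleted cells and 78.1% ± 0.712 in Scx-positive cells (SD, n = 4 each), with adjusted p by the exact permutation test of 0.635, 0.5 and 0.714. With 1 library left out, 4 against 3 allow no p under 0.0571, so 0 steps could pass.

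**Figure D3:**
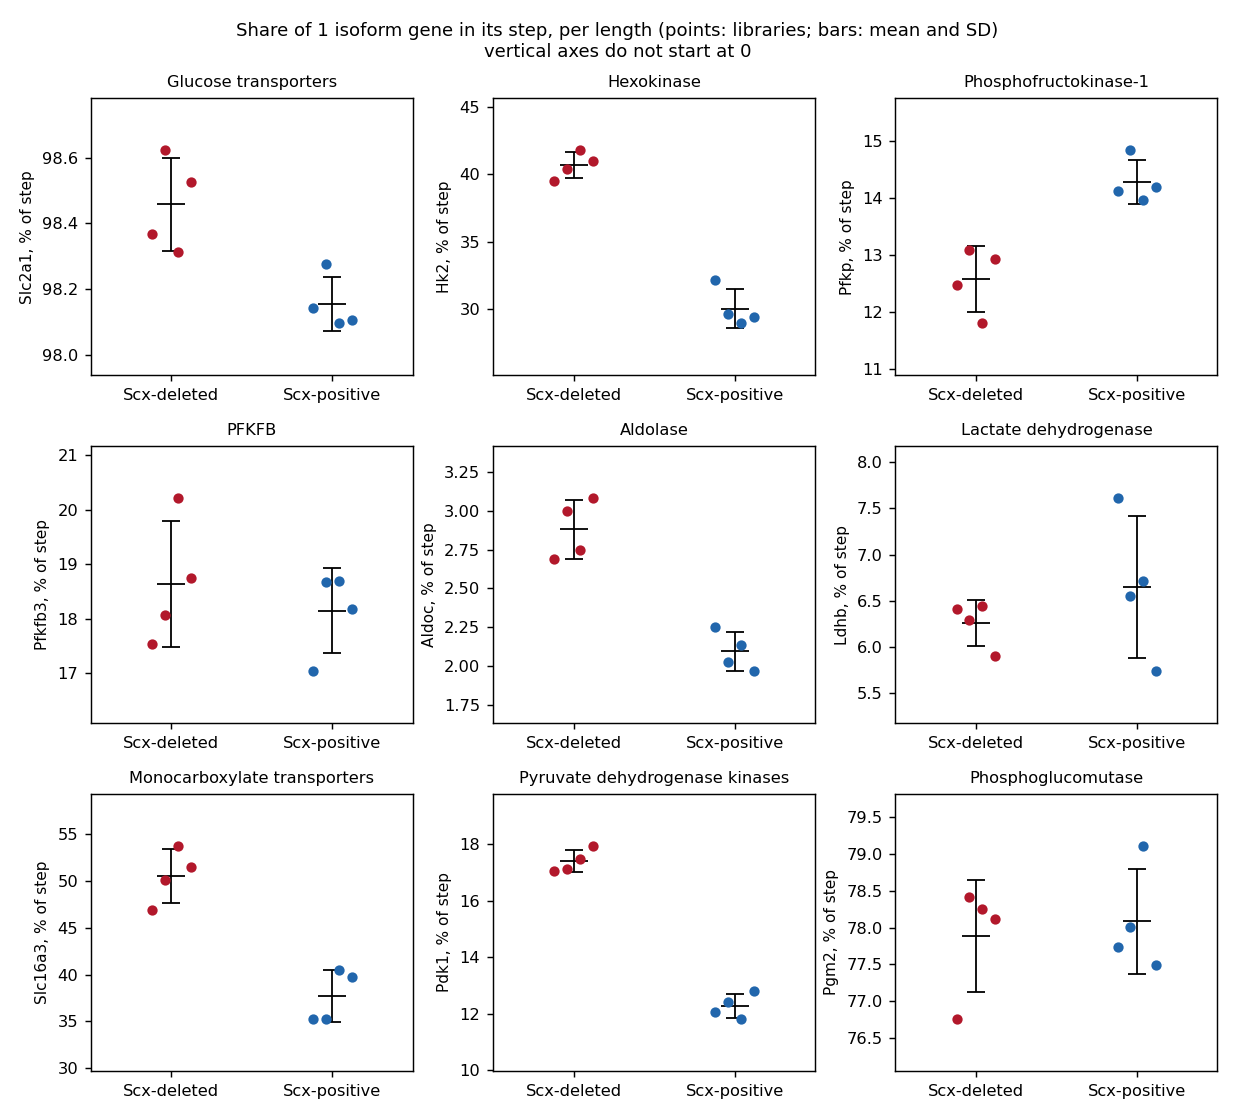
Share of a step's summed level per length (y axis, percent) taken by the named isoform, with 1 point per library and bars at the mean and SD of 4; the y axes do not start at 0, and Scx-deleted libraries are left of Scx-positive ones. The share of Hk2 was 39.5 to 41.8% in Scx-deleted cells and 28.9 to 32.1% in Scx-positive cells, and that of Slc16a3, Pdk1 and Aldoc was also higher, while Pfkfb3, Ldhb and Pgm2 overlapped.

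Per length, Pkm was the most abundant of the 42 genes, at 338 CPM per kb in Scx-deleted cells and 288 CPM per kb in Scx-positive cells, followed by Aldoa at 318 CPM per kb in Scx-deleted cells and 267 CPM per kb in Scx-positive cells and Ldha at 237 CPM per kb in Scx-deleted cells and 191 CPM per kb in Scx-positive cells. The scarcest were Slc2a3, at 0.695 CPM per kb in Scx-deleted cells and 0.609 CPM per kb in Scx-positive cells, and Eno1, at 0.896 CPM per kb in Scx-deleted cells and 0.841 CPM per kb in Scx-positive cells. This order holds for the counts used here only. In the authors' deposited table, not divided by length, Eno1 had a mean of 50540 and Gapdh of 48256. Both lay above Aldoa at 32798 and below Pkm at 77208. Several abundant glycolytic genes have near-identical copies elsewhere in the genome, and their counts were low beside the authors' deposited table. There the mean normalised count was 1.26 times the mean count used here for the median gene. Relative to that ratio it was 403 for Eno1, 9.11 for Pgam1, 5.35 for Pgk1, 3.09 for Gapdh, 2.33 for Mpc1 and 1.85 for Pkm. It was between 1.21 and 1.46 for Ldha, Aldoa, Tpi1, Gpi1 and Ldhb, and between 0.953 and 1.199 for the other 31 genes, so the levels of the 11 genes with higher ratios are uncertain. Of the 11 genes over a ratio of 1.2, a limit chosen after the values were seen, 10 had a stretch of at least 200 bases that matched another gene or pseudogene at 95% identity or more, and so had 2 of the other 31. Gapdh had 77 such copies, 75 of them pseudogenes, and Eno1 had 3, among them Eno1b. The part of these copies in the ratio was not tested. Of the 11 genes, 8 rose here; of the other 31, 15 rose and 2 fell.

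The direction of the authors' deposited table was read from its sign, which was the same for 3335 of 3335 genes called in both. The authors' deposited table called 25 of the 42 genes as positive at an adjusted p of 0.05 (15.1% of its 14511 genes were) and 2 as negative (14.1%). Eno1 passed there, with a log2 fold change of 0.24 ± 0.04 (SE; adjusted p = 6.54e-09) in the authors' deposited table, and so did Gapdh, at 0.24 ± 0.03 (SE; adjusted p = 2.06e-10) in the authors' deposited table. The authors' deposited table also called Pdk3, Pdha1 and Rpe, and it did not call Ldhb, Mpc2 and Pgm1.

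**Figure D4:**
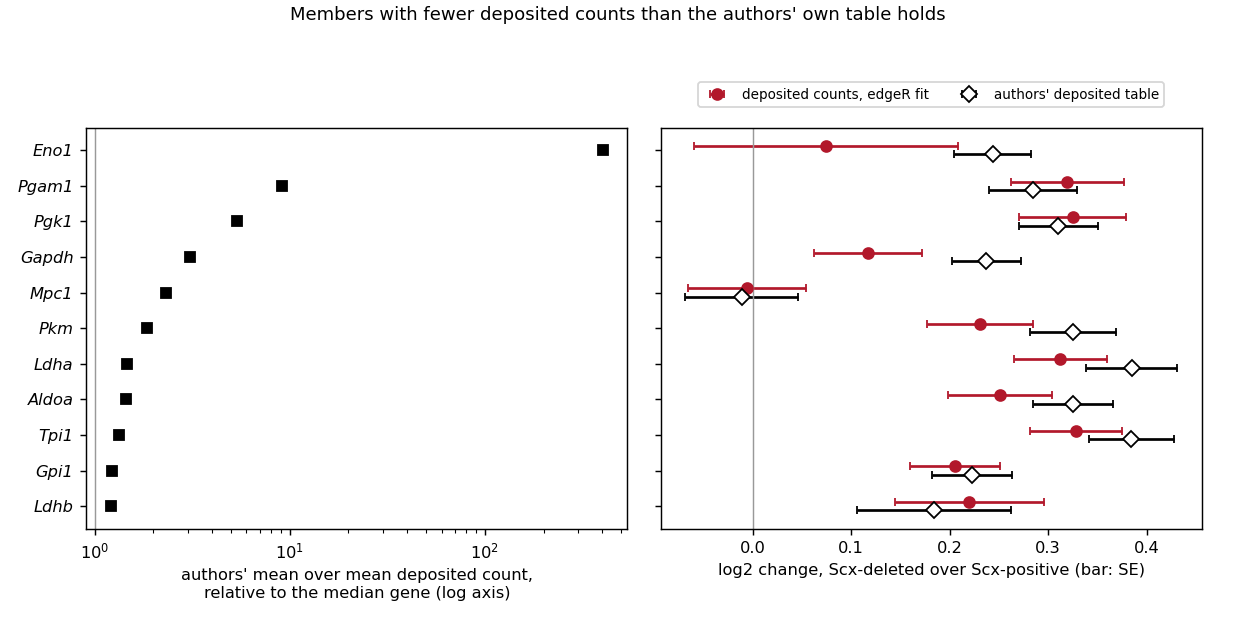
The 11 genes whose mean in the authors' deposited table was more than 1.2 times the mean count, relative to the median gene. The left panel gives that ratio on a log axis, highest for Eno1 at 403; the right panel gives the log2 change, Scx-deleted over Scx-positive, with SE bars, from the counts (filled circles) and from the authors' deposited table (open diamonds), which lie furthest apart for Eno1 and Gapdh.

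Other genes of these pathways, taken from a list of 72 that were not members, moved in both directions: 51 were tested, of which 7 rose (13.7%, against 14.0% of all tested genes) and 13 fell (25.5%, against 14.5%), with a median log2 change of -0.04. Gyg, glycogenin, the primer of glycogen, averaged 116 ± 5.19 CPM in Scx-deleted cells and 81.5 ± 2.37 CPM in Scx-positive cells (SD, n = 4 each) and rose by 0.51 ± 0.04 (SE; adjusted p = 7.25e-07, edgeR) on the log2 scale. Slc2a6, a glucose transporter of the GLUT family, rose by 0.58 ± 0.07 (SE; adjusted p = 1.67e-05, edgeR), Adpgk, an ADP-dependent glucokinase, by 0.24 ± 0.04 (SE; adjusted p = 3.67e-04, edgeR), and H6pd, which makes NADPH in the endoplasmic reticulum, by 0.24 ± 0.05 (SE; adjusted p = 0.00158, edgeR). The GLUT family did not rise together. Slc2a9, Slc2a10 and Slc2a13, named after their values were seen, fell, with log2 changes of -0.38, -0.27 and -0.37 (adjusted p = 0.0133, 0.00982 and 0.0147, edgeR). Slc2a5, Slc2a8 and Slc2a12 did not pass the test. Pdp2, a phosphatase that reverses the action of the pyruvate dehydrogenase kinases, rose by 0.44 ± 0.08 (SE; adjusted p = 4.39e-04, edgeR) on the log2 scale, while its sister Pdp1, named after its values were seen, fell, with a log2 change of -0.34 ± 0.08 (SE; adjusted p = 0.00324, edgeR). Eno3, the muscle enolase, fell, with a log2 change of -0.34 ± 0.06 (SE; adjusted p = 2.60e-04, edgeR). Ppp1r3c, a glycogen-targeting subunit of protein phosphatase 1, fell, with a log2 change of -1.27 ± 0.24 (SE; adjusted p = 7.92e-04, edgeR). It was scarce, with means of 0.418 CPM in Scx-deleted cells and 1.0202 CPM in Scx-positive cells, so this change rests on few counts. Phka2, a subunit of phosphorylase kinase, fell with -0.31 ± 0.06 (SE; adjusted p = 0.00152, edgeR). The number that fell was 8 without Scx-deleted 5.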

How the data were processed

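RNA was sequenced in 4 Scx-deleted and 4 Scx-positive libraries, grouped by labelled genotype. Per the submitters' processing notes, STAR, DESeq2, FastQC and the build mm10 were used; the sources used here give neither their roles and versions nor the counter, annotation or strand use, so genes that share sequence or overlap may be miscounted. The count table that the authors deposited holds raw whole-number counts for each gene symbol. Reads in no feature and ambiguous reads took 7.73% ± 0.375 and 0.549% ± 0.0126 in Scx-deleted and 8.30% ± 0.542 and 0.496% ± 0.00696 in Scx-positive libraries (SD, n = 4 each); both were dropped. The authors' deposited comparison table holds a mean signal (normalised count), a log2 fold change, its standard error and statistic (scores) and p-values; it was compared only, and 2 columns that name no library were not used.

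The tests used edgeR 4.0.16 in R 4.3.3 (filterByExpr with a minimum count of 10 and a total of 15, TMM factors, quasi-likelihood fit on group, Benjamini-Hochberg over 13125 genes, called under 0.05); limma 3.58.1 and DESeq2 1.42.0 were alternatives. The common biological coefficient of variation was 5.50%. CPM use TMM factors. Exon lengths and gene positions came from GENCODE mouse release M21 (GRCm38), which held 24490 of 24982 symbols (98.0%), and promoters from RefSeq (GRCm38.p6). No pair of libraries within a group was closer than sampling noise. The fit was tested on simulated counts. The members and lists were chosen with earlier results of these data known. Per-library values are given for called genes with a log2 change of at least 0.3 in size and for isoform pairs whose share differed, and up to 8 called genes are named per other list. Further called genes of the other pathway list are marked as named after their values were seen.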

Additional observations from a re-analysis of the deposited data

Results flagged for a closer look

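Of 84 groups of 4 libraries examined, 1 held a library far from the rest, and chance alone would give about 4.2 (1 in 20). Pgk1 stood at 197 CPM in Scx-deleted 4, against 175 to 179 CPM in the other Scx-deleted libraries, and the gap to the nearest was 0.831 of the group's range. Without Scx-deleted 4, Pgk1 rose by 0.28 on the log2 scale with an adjusted p of 0.00178 by edgeR.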

How the results depend on the processing

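The 16 alternatives were scaling by RLE and by upper quartiles, omission of the filter, a filter of 5 CPM in 4 libraries (which left 40 of the 42 genes), DESeq2, limma-voom, the replicate number as a block, a correction for GC content and length, and each of the 8 libraries left out. Of the 23 genes that rose, 20 kept their call in all of them, the exceptions being Ldhb, Pgm1 and Pgm2; of the 2 that fell, Pdk2 kept its call. Hk1, Gapdh, Pdk3, Pgd, Rpe and Tkt passed in at least 1 alternative. The number that rose was 20 with upper-quartile scaling, 28 with the GC and length correction, and 20 to 26 with 1 library left out; the number that fell was 1 with no filter, with DESeq2 and with the replicate block, 3 with upper-quartile scaling and with the filter of 5 CPM, and 1 to 2 with 1 library left out. The deviations of same-numbered libraries had correlations of -0.06, 0.16 and 0.06 for numbers 2, 3 and 5. Those of differently numbered libraries ran from -0.23 to 0.14. So few correlations cannot decide whether the numbers pair the libraries. Only these same numbers occur in both groups, so only they inform the group difference in the replicate block. That block gave 21 genes that rose and 1 that fell. Over all genes, 1842 rose and 2818 did with the GC and length correction; with 1 library left out 1447 to 2409 rose and 1427 to 2310 fell. With 1 library left out, 8 to 17 other pathway genes fell and 0 of the 10 isoform shares passed, because 4 against 3 cannot. The uncalled log2 differences near 0 changed sign: Pfkp was -0.011 with upper-quartile scaling, Slc16a1 was 0.0096 with the replicate block and 0.020 with the GC and length correction, and Mpc1 was 0.011 with the replicate block. With 1 library left out Pfkp was -0.0074 to 0.034, Eno1 -0.014 to 0.17, Slc16a1 -0.038 to 0.013, Mpc1 -0.016 to 0.017 and Pgls -0.16 to 0.12, and the share differences were -0.035 to 0.86 points for Pfkfb3 and -0.40 to 0.17 points for Pgm2. Adding further genes to the steps, chosen after seeing the data, left 7 of 10 isoform shares passing. The cause of these shifts was not tested. The member median stayed between 0.15 and 0.21. The scarcest gene had a mean of 99.5 counts.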

Other observations

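Beyond pyruvate, the 22 genes of the tricarboxylic acid cycle and citrate export were all tested: 6 rose (27.3%, against 14.0% of all tested genes) and 1 fell (4.55%, against 14.5%) in Scx-deleted cells, with a median log2 change of 0.04. Acly, which splits citrate into acetyl-CoA in the cytosol, averaged 911 ± 35.9 CPM in Scx-deleted cells and 751 ± 33.5 CPM in Scx-positive cells (SD, n = 4 each) and rose by 0.28 ± 0.04 (SE; adjusted p = 2.12e-04, edgeR) on the log2 scale. Slc25a1, the mitochondrial citrate carrier, rose by 0.27 ± 0.06 (SE; adjusted p = 0.00290, edgeR), and Idh1, the cytosolic NADP-dependent isocitrate dehydrogenase, by 0.22 ± 0.04 (SE; adjusted p = 6.08e-04, edgeR). Its mitochondrial counterpart Idh2 fell, with a log2 change of -0.25 ± 0.05 (SE; adjusted p = 0.00304, edgeR). Mdh1, Idh3b and Sdhc rose, with log2 changes of 0.17 ± 0.04 (SE; adjusted p = 0.00428, edgeR), 0.16 ± 0.04 (SE; adjusted p = 0.00482, edgeR) and 0.14 ± 0.04 (SE; adjusted p = 0.0158, edgeR).

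Of 23 regulators of these pathways 21 were tested, and 3 rose (14.3%, against 14.0% of all tested genes) and 1 fell (4.76%, against 14.5%), with a median log2 change of 0.07. Egln3, an oxygen-dependent prolyl hydroxylase and a known target of hypoxia-inducible factors, rose by 0.59 ± 0.10 (SE; adjusted p = 3.11e-04, edgeR) on the log2 scale. Bhlhe40, a transcriptional repressor, rose by 0.51 ± 0.05 (SE; adjusted p = 1.68e-06, edgeR), and Mlx, the partner of the glucose-sensing factors ChREBP and MondoA, by 0.40 ± 0.05 (SE; adjusted p = 1.81e-05, edgeR). Txnip, which restrains glucose uptake, fell, with a log2 change of -0.34 ± 0.05 (SE; adjusted p = 7.61e-05, edgeR). Hif1a and Myc, named here after their values were seen, had log2 differences of 0.05 and -0.01 and did not pass the test.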
